A study of Mus musculus with 2 samples.

Results

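Gzma, Nkg7, Ccl5, Il2rb, Zbtb16, Tbx21, Xcl1 and Klrb1c are genes of innate-like and cytotoxic T cells, and all 8 were found by symbol among the 20282 genes of a mouse thymus single-cell count matrix. They were taken as a named list, and their levels were read by the 19 clusters that the authors deposited and by the WT or KO label in each cell name. The thymuses came from littermate mice of 6 weeks, 5 pooled into each of 2 libraries. The WT-labelled library is Cdc42f/f, in which the gene of the small GTPase Cdc42 is flanked by recombination sites and intact. The KO-labelled library is Cdc42f/f CD4Cre, in which the Cd4 promoter drives Cre, so that deletion starts when thymocytes first express Cd4 and does not extend to cells that never did. The genes lie at chr13:113093825-113100981 (Gzma, minus strand), chr7:43437073-43438249 (Nkg7, plus), chr11:83525778-83530518 (Ccl5, minus), chr15:78479256-78495271 (Il2rb, minus), chr9:48654297-48836222 (Zbtb16, minus), chr11:97098071-97115331 (Tbx21, minus), chr1:164931644-164935527 (Xcl1, minus) and chr6:128778485-128789215 (Klrb1c, minus) in GENCODE vM21 on mm10. Whole thymus was used without a sort, and RNA was captured at its 3′ end in droplets and counted as unique molecular identifiers (UMIs).

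Most thymocytes are immature cells that have not yet acquired a killing or cytokine programme. Such a programme is instead found before the cells leave the thymus in small populations, among them gamma-delta T cells, invariant natural killer T cells and innate-like CD8 cells, and in natural killer (NK) cells, which are not T cells. Gzma encodes granzyme A, a protease of cytotoxic granules, and Nkg7 a membrane protein of the same granules. Ccl5 and Xcl1 encode chemokines, Il2rb the receptor chain shared by interleukin-2 and interleukin-15, and Klrb1c the lectin receptor NK1.1. Zbtb16 encodes PLZF, the transcription factor that directs natural killer T cell development, and Tbx21 encodes T-bet, a T-box factor of type 1 and cytotoxic lymphocytes.

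The WT-labelled library held 6115 cells with 29706197 UMIs in all (median per cell 3192), and the KO-labelled library 7568 cells with 37920214 UMIs (median per cell 3401). With 1 library per genotype nothing was tested, and every interval below is a 95% interval that covers counting error only, not the spread between mice. UMIs of a gene that come from a few cells are not independent of each other, so an interval on UMIs is then too narrow, and the number of cells is given beside it. Levels are given as CPM, the UMIs of the gene scaled to 1e6 UMIs of the cells named. In 3′ counts these levels are not compared between genes. Cdc42 itself did not check the labels. It stood at 398 CPM under the WT label and 356 CPM under the KO label over all cells, and in cluster 7 at 447 and 581 CPM, a ratio of 1.302 (1.199 to 1.414). Per the study, the second exon is the deleted part, and 3′ tags read the end of the transcript, so a tag outside the deleted part checks nothing. A total of 17 cell barcodes occurred in both libraries, and none belonged to a cell with UMIs of 3 or more of the 8 genes.

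The clusters are called here by their number and by a gene that peaks in them. Clusters 0 to 4 are the large Rag1-high clusters, clusters 5 and 9 are led by Egr2 and Nr4a1, cluster 6 had the highest Itm2a and cluster 7 the highest Ms4a4b, a gene of mature thymocytes. Clusters 10 to 13 hold cycling cells. Top2a, a gene of dividing cells, was also high in clusters 18 and 17, at 1952 and 1094 CPM, so cycling cells are not confined to clusters 10 to 13. Cluster 14 is led by H19, cluster 15 by genes of class II antigen presentation and B cells, and cluster 16 by genes of macrophages. Cluster 18 is small, with 24 WT-labelled and 8 KO-labelled cells at a median of 17934.5 UMIs, and Eomes and Crtam are among its leading genes. The 8 genes peaked in different places. Nkg7, Il2rb and Zbtb16 were highest in cluster 18 over both libraries, Tbx21, Xcl1 and Klrb1c in cluster 7, Gzma in cluster 14 and Ccl5 in cluster 15.

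**Figure D1:**
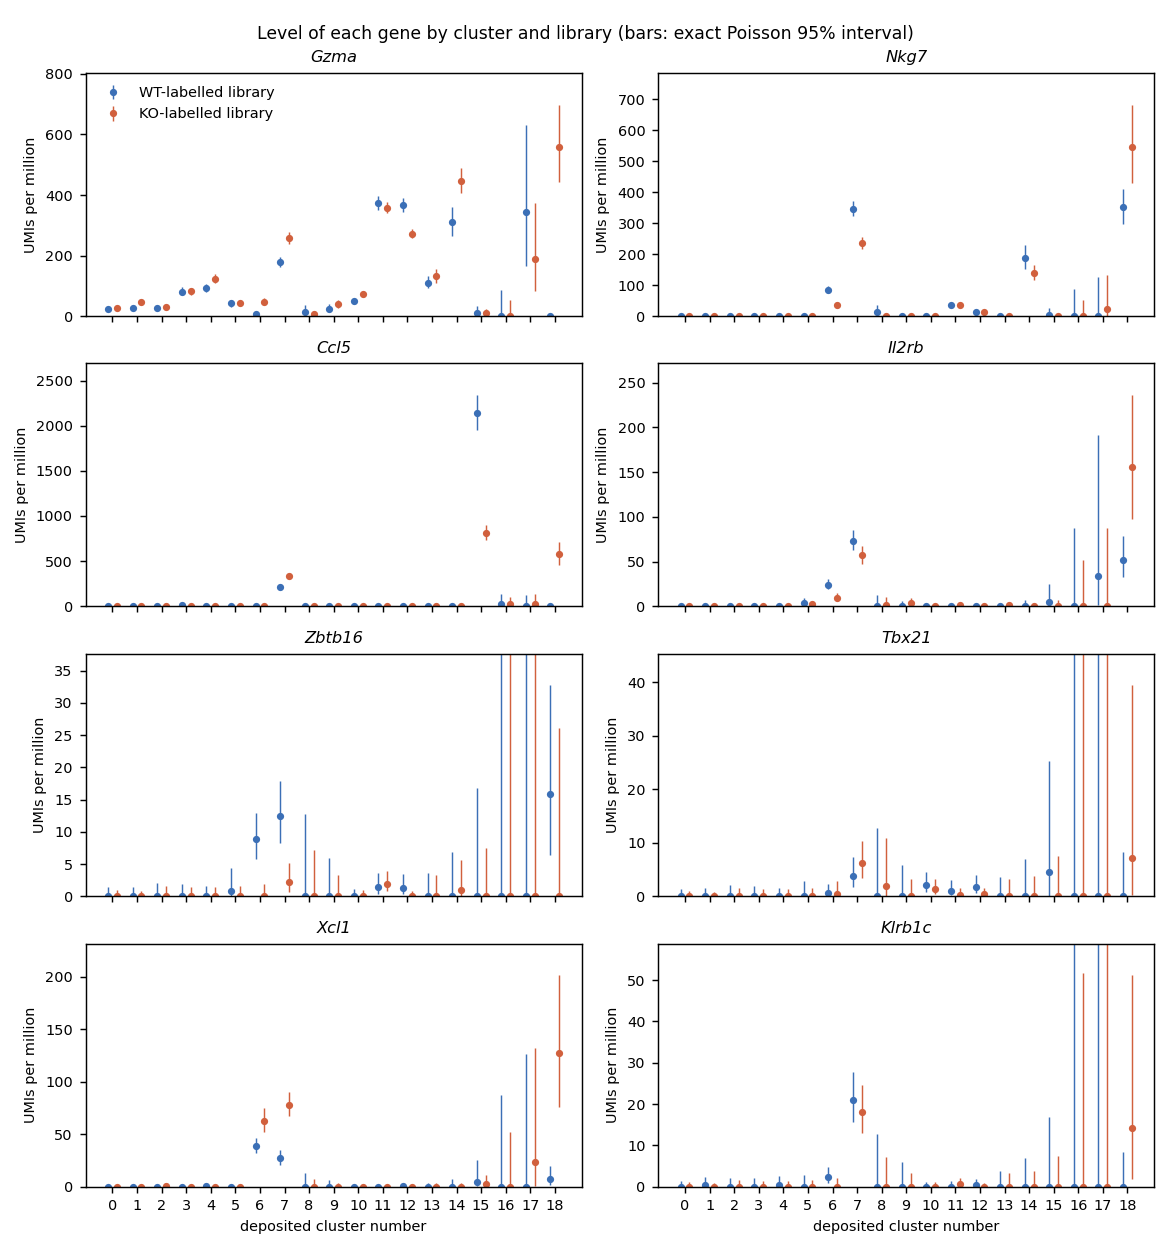
CPM (vertical axis, linear) of each gene in the 19 deposited clusters (horizontal axis), with points for the WT-labelled and KO-labelled libraries and bars for the exact Poisson 95% interval. Bars of the shallow clusters 16 and 17 run past the top of some panels. Gzma is spread over many clusters. Il2rb, Zbtb16, Xcl1 and Klrb1c lie mainly in clusters 6, 7 and 18, and Nkg7 in clusters 7, 14 and 18.

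Gzma was the widespread member. Its 8761 UMIs lay in 1927 of 13683 cells (14.1%), of which 51.9% held a single UMI. Cluster 14 stood at 399 CPM (368 to 432) and cluster 11 at 365 CPM (350 to 380), and these neighbours did not differ beyond their intervals, whereas cluster 12 was lower at 310 CPM (297 to 323). Clusters 11 and 12 alone held 26.9% and 25.8% of all Gzma UMIs. A Gzma UMI was present in 73.2% of the cells of cluster 11, 68.8% of cluster 12, 61.4% of cluster 14 and 34.3% of cluster 13.

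The Rag1-high clusters carried Gzma at a lower level. The share of cells with a UMI was 5.85% in cluster 0, 8.75% in cluster 1, 6.16% in cluster 2, 14.9% in cluster 3 and 23.1% in cluster 4, with at most 12 UMIs in any of these cells. The macrophage cluster 16, which should lack the gene, had none in 79 cells at a median of 759 UMIs, which allows a share of cells with a UMI of up to 3.80% at that shallow depth. Since these clusters differ in depth, each cell was also drawn down to 1000 UMIs. The share was then 21.9% (17.8 to 26.5) in cluster 11, 19.4% (15.3 to 24.2) in cluster 12 and 22.9% (16.5 to 30.4) in cluster 14, against 9.49% (7.90 to 11.3) in cluster 4, 2.69% (2.07 to 3.44) in cluster 0 and 0.504% (0.137 to 1.28) in cluster 6. Only 23 cells of cluster 16 reached this depth, none with a UMI, and the upper limit there was 14.8%. The share thus differed between the T cell clusters at equal depth.

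Cells with Gzma were of different kinds in different clusters. In cluster 7, the 46 cells with a Gzma UMI held Trdc, the constant gene of the T cell receptor delta chain, at 771 CPM against 89.4 CPM in the 682 cells without, and Sox13, a factor of gamma-delta T cells, at 147 against 1.19 CPM. The 46 cells also held Rag1 at 446 against 106 CPM and Cd8b1 at 865 against 578 CPM. They were deeper, at a median of 8569.5 against 5719.5 UMIs. Both Cd4 and a Cd8 gene were detected in 18 of them and neither in 18, so they were a mixed set. In cluster 11 Trdc differed little and Trgc1 was lower in cells with Gzma. Trdc stood at 302 CPM in the 267 cells with Gzma and at 256 CPM in the 98 without, and Trgc1, a gamma chain constant gene, at 118 and 219 CPM. Over the 19 clusters Trdc was the gene most like Gzma in pattern, with a Pearson r of 0.91 of log2(CPM + 1). This is a description over clusters that share libraries and differ in depth.

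Nkg7 was found in fewer cells, with 2478 UMIs in 435 cells. It stood at 399 CPM (349 to 454) in cluster 18, 292 CPM (276 to 308) in cluster 7, 157 CPM (138 to 178) in cluster 14, 66.5 CPM (59.5 to 74.1) in cluster 6 and 34.9 CPM (30.4 to 39.7) in cluster 11. None of these intervals overlapped the next. Cluster 7 held 54.1% of its UMIs. In the Rag1-high clusters an Nkg7 UMI was found in 4 cells of cluster 0, 4 of cluster 1 and 1 of cluster 3, and in none of clusters 2 and 4.

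Where Nkg7 occurred in the cycling clusters 11 and 12, the cells carrying it stood apart. In cluster 11, the 46 cells with an Nkg7 UMI held Trgc1 at 672 CPM against 36.3 CPM in the 319 without, Il2ra, the interleukin-2 receptor alpha chain of early thymocytes, at 272 against 16.9 CPM, and Cd8b1 at 201 against 1134 CPM. Cluster 12 gave 369 and 19.8 CPM for Trgc1 over 27 and 297 cells. In cluster 14, where 82 of 153 cells had a UMI, the contrast for Trgc1 was smaller at 744 against 466 CPM. Nkg7-carrying cells were deeper in both clusters 11 and 12, with median totals of 21706 against 13736 UMIs in cluster 11.

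Ccl5 came mainly from clusters 15 and 7, whose cells are of different kinds. Cluster 15 stood at 1221 CPM (1141 to 1305) with 871 UMIs in 33 of its 150 cells, and cluster 7 at 275 CPM (260 to 290) with 1262 UMIs in 40 of its 728 cells. The 33 Ccl5 cells of cluster 15 were shallow, at a median of 959 UMIs, and held the dendritic cell genes Fscn1 at 2009 CPM and H2-Aa at 7449 CPM and the migration receptor Ccr7 at 762 CPM, against 124, 3173 and 70.2 CPM in the other 117 cells. The B cell genes Cd79a and Ms4a1 were at 0 UMIs in these 33 cells, as was Siglech, a plasmacytoid dendritic cell gene. Itgax, Xcr1 and Clec9a, other dendritic cell genes, were also at 0 UMIs in them, against 45.8, 21.4 and 12.2 CPM in the other cells. A count of 0 in these 33 cells allows up to 63.9 CPM, so no difference can be read for Itgax, Xcr1 and Clec9a. Cd74 stood at 17548 against 9752 CPM. Flt3 stood at 52.0 CPM (10.7 to 152) from 3 UMIs, against 25.9 CPM (15.1 to 41.5), with overlapping intervals. None of the 62 cells with 3 or more of the 8 genes lay in cluster 15. In that cluster Ccl5 was carried by 19 of 63 WT-labelled cells (470 UMIs, 2137 CPM) and 14 of 87 KO-labelled cells (401 UMIs, 813 CPM).

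Il2rb was highest in cluster 18 at 77.4 CPM (56.5 to 104), followed by cluster 7 at 65.3 CPM (58.1 to 73.1), and these 2 did not differ beyond their intervals. Cluster 6 was lower at 18.6 CPM (15.03 to 22.9). Xcl1 stood at 52.2 CPM (45.8 to 59.3) in cluster 7, 47.6 CPM (41.7 to 54.1) in cluster 6 and 36.1 CPM (22.4 to 55.2) in cluster 18, with overlapping intervals throughout. Clusters 6 and 7 held 46.8% and 47.8% of its UMIs. Klrb1c was nearly all in cluster 7, which held 86.5% of its UMIs at 19.6 CPM (15.7 to 24.1).

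The transcription factors were sparse. Zbtb16 had 85 UMIs in 31 cells and stood at 12.04 CPM (4.84 to 24.8) in cluster 18, where 1 cell held all 7 UMIs, at 7.40 CPM (5.12 to 10.3) in cluster 7 and at 5.47 CPM (3.61 to 7.96) in cluster 6. These 3 levels overlapped, and clusters 7 and 6 held 40% and 31.8% of the UMIs. Tbx21 had 52 UMIs in 43 cells, never more than 3 in a cell, at 5.005 CPM (3.17 to 7.51) in cluster 7 and 1.75 CPM (0.906 to 3.06) in the cycling cluster 10. Zbtb16 and Tbx21 shared 6 cells, which is 19.4% of the Zbtb16 cells and 13.95% of the Tbx21 cells.

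Genes with the most similar pattern over the 19 clusters were taken from those with at least 100 UMIs. Il2rb and Xcl1 were nearest each other with r = 0.93. Klra9, a Ly49 receptor, followed Zbtb16 with r = 0.94, and Dapl1 followed Klrb1c with r = 0.95. For Nkg7 it was Igfbp4 with r = 0.92, for Ccl5 Klrk1, the NKG2D receptor, with r = 0.87, and for Tbx21 S1pr1, the receptor used for thymic exit, with r = 0.87. These values describe 19 points only.

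The bases before 3 of the start sites are shown because T-bet, the product of Tbx21, belongs to the list and binds T-box motifs. RefSeq windows (build GRCm38.p6) matched 5 of the 8 genes, and Ccl5, Il2rb and Zbtb16 were not among them. The T-box letters AGGTGT and GGTGTG, which overlap in AGGTGTG, and the RUNX letters TGTGGT were searched on both strands in the 250 bases before each start site. Over all 32851 windows, 11.8%, 16.3% and 14.05% held them, and 22.2% held either of the T-box strings. Capitals mark the matches, and only bases outside the annotated gene are printed.
Gzma, chr13:113100982-113101231, minus strand: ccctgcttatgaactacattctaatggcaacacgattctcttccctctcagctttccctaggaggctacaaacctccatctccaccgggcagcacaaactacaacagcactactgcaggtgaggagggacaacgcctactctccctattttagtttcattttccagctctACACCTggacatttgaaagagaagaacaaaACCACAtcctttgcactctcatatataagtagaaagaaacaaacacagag
Xcl1, chr1:164935528-164935772, minus strand: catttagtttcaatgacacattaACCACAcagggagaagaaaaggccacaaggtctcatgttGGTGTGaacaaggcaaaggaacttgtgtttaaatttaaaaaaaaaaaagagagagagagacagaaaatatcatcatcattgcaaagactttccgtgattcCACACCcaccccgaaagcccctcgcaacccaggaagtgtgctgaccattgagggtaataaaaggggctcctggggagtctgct
Nkg7, chr7:43436888-43437072, plus strand: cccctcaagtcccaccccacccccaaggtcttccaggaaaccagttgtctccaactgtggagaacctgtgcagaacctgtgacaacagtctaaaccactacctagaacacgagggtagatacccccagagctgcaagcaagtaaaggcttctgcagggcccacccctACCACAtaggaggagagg
Gzma held 1 T-box match and 1 RUNX match, and Xcl1 held 2 T-box matches and 1 RUNX match. The printed Nkg7 bases held 1 RUNX match, and its overlapping T-box matches at bases -14 and -13 lie inside the annotated gene. In the windows that are not printed, Klrb1c held 1 RUNX match and Tbx21 none. A match is a description of the letters and not a bound site.

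Whether few or many cells carried the UMIs differed by gene. A share of 50% of the UMIs lay in the 119 highest cells for Gzma and in 71 for Nkg7, but in 35 for Il2rb, 17 for Tbx21, 12 for Ccl5, 8 for Klrb1c, 6 for Zbtb16 and 5 for Xcl1. The most UMIs of a gene in 1 cell were 226 for Gzma, 131 for Ccl5, 87 for Xcl1 and 73 for Nkg7. The 10 highest cells held 70.5% of all Xcl1 UMIs and 13.9% of all Gzma UMIs. In the KO-labelled library, 2 cells held 50% of the Xcl1 UMIs, and the same count was 4 in the WT-labelled library.

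**Figure D2:**
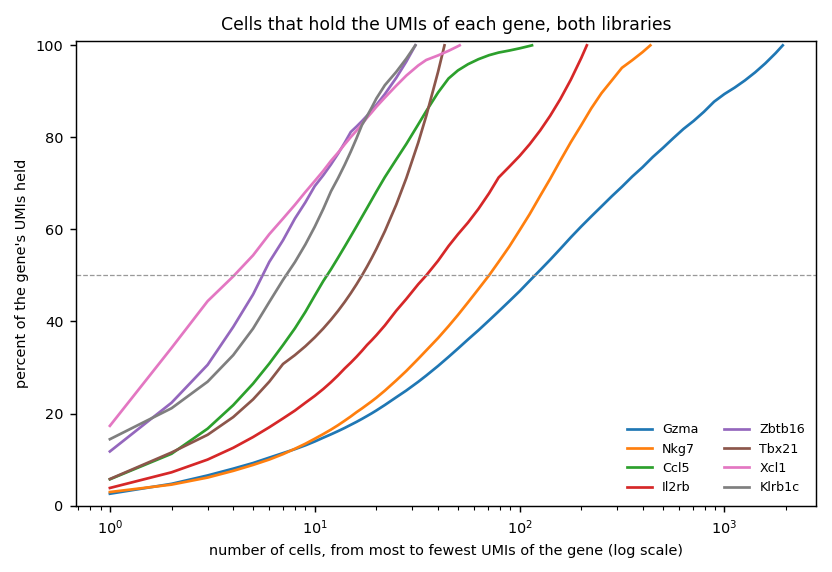
Cumulative percent of each gene's UMIs (vertical axis) held by its highest cells (horizontal axis, log scale), over both libraries, with a dashed line at 50%. Xcl1 reaches the line with 5 cells and Gzma with 119.

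Most cells had none of the 8 genes. Of 13683 cells, 11277 had no UMI of any of them, 2105 had UMIs of 1 gene, 239 of 2 genes and 62 of 3 or more, and 2 cells held all 8. The 62 cells held 97.1% of the Klrb1c UMIs, 74.3% of Xcl1, 55.3% of Zbtb16, 53.4% of Il2rb, 51.6% of Ccl5, 50% of Tbx21 and 36.7% of Nkg7, but 3.62% of Gzma. For Gzma, being carried by 1 of these cells was thus the exception. For Klrb1c, 27 of its 31 cells also held Nkg7 and 25 also held Il2rb.

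Of the 62 cells, 44 lay in cluster 7, 7 in cluster 6, 5 in cluster 18 and 3 in each of clusters 11 and 12. Membership was set by the 8 genes, so their own levels in these cells are no finding. Among the other genes that led in these cells, Klre1, Styk1 and Ifng were absent from every other cell. Klre1 was held by 37.1% of the 62 cells, and the NK receptor genes Klrk1, Klrc2, Klra7 and Klra1 and the granzyme gene Gzmb followed. Klrk1 was held by 35.5% of the 62 cells at a mean of 3.02 counts per 10000 UMIs, against 0.00213 in the others. Ly49 (Klra) and Klrb1 receptor genes are families of similar genes, and reads could have been split or lost among them.

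The 62 cells were not of a single kind. No Cd3d, Cd3e or Cd3g UMI was present in 5, and all 5 of these held Tyrobp, Fcer1g or Ncr1, genes of NK cells and other innate cells. Trac, the constant gene of the T cell receptor alpha chain, had a UMI in 45, of which 35 had none of Trdc, and 14 held Trdc without Trac. Neither Cd4 nor a Cd8 gene was detected in 31, a Cd8 gene without Cd4 in 21 and Cd4 without Cd8 in 4. Of the B cell markers, Cd79a and Ms4a1 were at 0 UMIs, Igkc had 1 and Cd79b 7 in 5 cells. Of the macrophage markers, C1qa, C1qb, C1qc and Lyz2 were at 0 and Apoe had 4. By doublet score, 4 of the 62 cells were among the highest 6% of their library.

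As counted, the make-up of these cells differed between the 2 libraries. The cells were set by the 8 genes without equal depth, at median totals of 9721 (WT-labelled) and 11383 UMIs (KO-labelled). Their make-up at equal depth was not read. Of the 37 WT-labelled cells, 28 (75.7%, interval 58.8 to 88.2) held Trac without Trdc, against 7 of 25 (28%, 12.1 to 49.4) KO-labelled cells. A Tyrobp, Fcer1g or Ncr1 UMI was found in 11 of 37 (29.7%, 15.9 to 47.0) against 17 of 25 (68%, 46.5 to 85.1). Most of these cells, 9 and 14, also held Cd3 UMIs, and 2 and 3 held none. Ncr1, the NK cell receptor NKp46, had 54 UMIs in 8 of the KO-labelled cells and 0 in the WT-labelled ones. Some Ly49 receptor genes went the other way. Klra8 had 23 UMIs in 3 WT-labelled cells and 0 in the KO-labelled ones, and Klra6 20 UMIs in 4 and 0. Klra9 had 102 UMIs in 8 WT-labelled cells and 14 UMIs in 1 KO-labelled cell. Klra7 did not, with 49 UMIs in 7 and 67 UMIs in 10 cells. Trav11, the variable gene of the invariant natural killer T cell receptor, had 6 UMIs in 5 WT-labelled cells and 0 in the KO-labelled ones, and Il4 had 8 UMIs in 3 and 0. This split by receptor genes was chosen after the values were seen.

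The share of such cells depended on depth. Without equal depth it was 37 of 6115 (0.605%, 0.426 to 0.833) under the WT label and 25 of 7568 (0.330%, 0.214 to 0.487) under the KO label. With each cell drawn down to 1000 UMIs, and the 236 and 220 shallower cells left out, it was 9 of 5879 (0.153%, 0.0700 to 0.290) and 8 of 7348 (0.109%, 0.0470 to 0.214). The intervals overlapped both ways, so this depth could not show a difference.

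**Figure D3:**
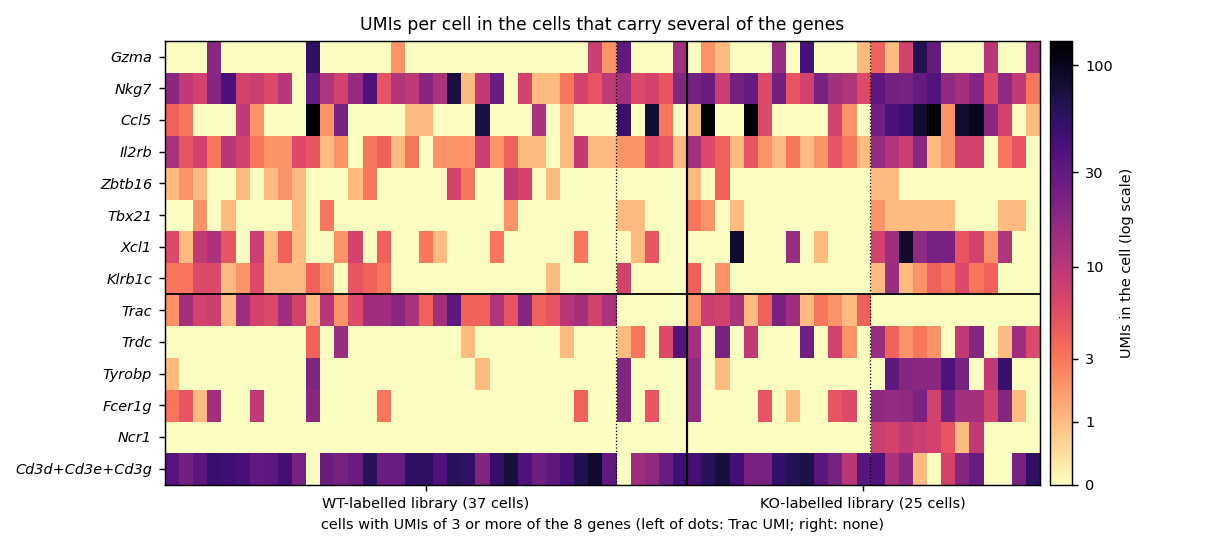
UMIs (colour, log scale) of the 8 genes and of Trac, Trdc, Tyrobp, Fcer1g, Ncr1 and the sum of Cd3d, Cd3e and Cd3g (rows) in the 62 cells with 3 or more of the 8 genes (columns), split by library and, at the dotted lines, by a Trac UMI. Trac is present in 32 of 37 WT-labelled and 13 of 25 KO-labelled cells, and Ncr1 in 8 KO-labelled cells only.

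Over all cells, 4 of the 8 genes were at least 1.5-fold lower in the KO-labelled library and none was 1.5-fold higher. Of the 15594 genes with at least 20 UMIs, 3.66% were as much lower and 6.43% as much higher. The median log2 ratio of the 8 genes was -0.60, beside 0.08 for all genes. The members are few and were picked with their values known, so the median is a description.

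Zbtb16 showed the largest ratio, with 72 UMIs in 23 WT-labelled cells and 13 UMIs in 8 KO-labelled cells, or 2.42 and 0.343 CPM. The log2 ratio was -2.78 (-3.80 to -1.96), a 6.86-fold lower level, and without the 5 cells with most UMIs it was -1.67. In cluster 6 the WT-labelled cells held 27 UMIs in 4 cells and the KO-labelled cells none in 316. In cluster 7 they held 29 UMIs in 14 of 332 cells and 5 UMIs in 4 of 396 cells. In the cycling cluster 11 the counts were 4 and 7 UMIs, and 1 KO-labelled cell held 4 of the 7. The lower level was thus not seen there, on counts too few to show a direction.

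Nkg7 stood at 49.5 CPM with 246 WT-labelled cells and at 26.6 CPM with 189 KO-labelled cells, a log2 ratio of -0.90 (-1.01 to -0.78). At 1000 UMIs per cell a UMI was found in 1.79% (1.46 to 2.16) and 0.830% (0.636 to 1.07) of cells. Il2rb stood at 9.49 CPM with 147 cells and 4.96 CPM with 66 cells, a log2 ratio of -0.94 (-1.21 to -0.67). Klrb1c stood at 1.99 CPM with 20 cells and 1.19 CPM with 11 cells, a log2 ratio of -0.74 (-1.34 to -0.16). All 3 were lower in the KO-labelled library, with Klrb1c resting on few cells. At 1000 UMIs per cell the shares of Il2rb were 0.442% (0.289 to 0.647) and 0.204% (0.114 to 0.336). Those of Klrb1c were 0.119% (0.0479 to 0.245) and 0.0680% (0.0221 to 0.159), and for both genes the intervals overlapped. Cluster 6 held 479 of 6115 WT-labelled and 316 of 7568 KO-labelled cells, and cluster 7 held 332 and 396. The part of these cell numbers in the ratios was not tested.

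The other members differed little or rested on few cells. Gzma stood at 122 and 135 CPM, a log2 ratio of 0.15 (0.09 to 0.21), Ccl5 at 34.5 and 33.4 CPM, a ratio of -0.05 (-0.17 to 0.07), and Tbx21 at 0.909 and 0.659 CPM, a ratio of -0.46 (-1.31 to 0.38) that was 0.90 at 1000 UMIs per cell, from 1 and 3 cells. Xcl1 stood at 6.26 CPM in 32 cells and 8.33 CPM in 19 cells, a log2 ratio of 0.41 (0.15 to 0.68), and had fewer carrying cells where its level was higher. Without its 5 highest cells the ratio of Xcl1 was -0.19.

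**Figure D4:**
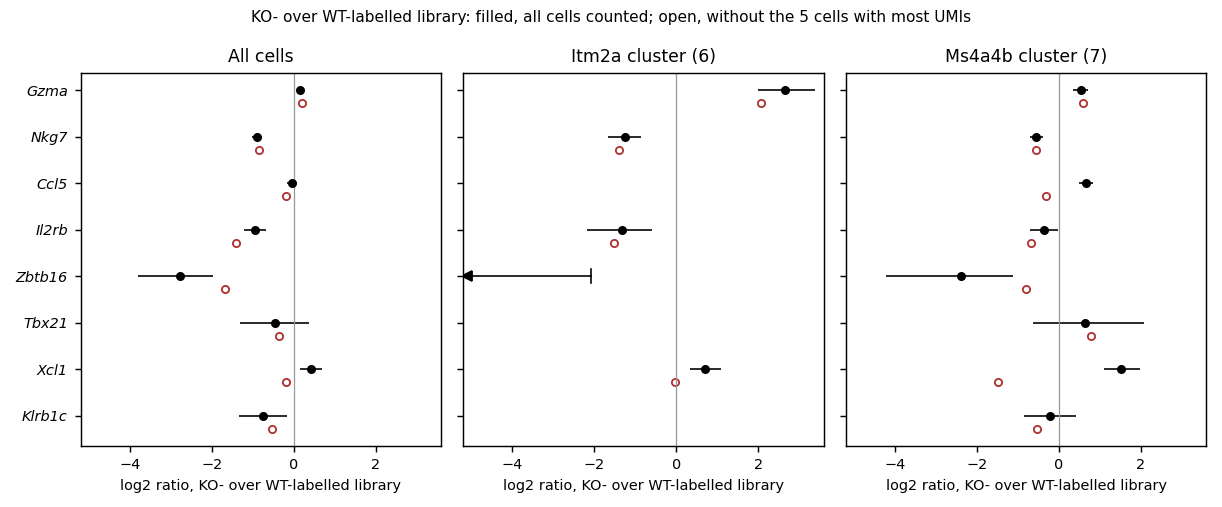
Log2 of KO-labelled CPM over WT-labelled CPM (horizontal axis) for each gene over all cells and in clusters 6 and 7, with bars for the 95% counting interval, an arrow where the KO-labelled count was 0, and open points without the 5 cells that hold most UMIs of the gene. Genes with fewer than 20 UMIs in a panel are not drawn. Nkg7, Il2rb and Zbtb16 lie below 0 in all 3 panels. The Xcl1 point moves from 1.52 to -1.49 in cluster 7, where the 5 cells left out are all KO-labelled.

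In cluster 7, 3 members were at least 1.5-fold higher and 1 was lower in the KO-labelled cells, beside 21.0% of 9586 genes higher and 5.55% lower. All genes were shifted there, with a median log2 ratio of 0.24, and the median of the 8 was 0.16. With scaling by trimmed mean of M-values (TMM) the 2012 higher and 532 lower genes became 909 and 1081, and with totals that leave out ribosomal protein and mitochondrial genes 1260 and 798. The 3 higher members were Xcl1, Ccl5 and Tbx21. Xcl1 had 63 UMIs in 18 WT-labelled cells and 177 UMIs in 9 KO-labelled cells, a log2 ratio of 1.52 (1.11 to 1.97), which became -1.49 without its 5 highest cells. Those 5 cells were all KO-labelled, so leaving them out could only lower the KO-labelled sum. Ccl5 had 498 UMIs in 22 cells and 764 in 18 cells, a ratio of 0.66 (0.49 to 0.82), which became -0.31. Most of its 5 highest cells were KO-labelled, with 131, 127, 117 and 100 UMIs, beside 125 UMIs in a WT-labelled cell. Leaving them out therefore lowered the KO-labelled sum more. Tbx21 had 9 UMIs in 6 cells and 14 in 10 cells, a ratio of 0.65 with an interval of -0.63 to 2.07.

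Nkg7 in cluster 7 stood at 346 CPM (323 to 371) in the WT-labelled cells and 236 CPM (216 to 257) in the KO-labelled cells, and Il2rb at 73.4 CPM (62.8 to 85.3) and 56.9 CPM (47.5 to 67.6). Their log2 ratios were -0.55 (-0.71 to -0.39) and -0.37 (-0.71 to -0.03), both below the median of all genes. The share of cells with an Nkg7 UMI was 33.1% and 17.2%, and 18.4% (14.4 to 23.0) against 8.59% (6.02 to 11.8) at 1000 UMIs. For Il2rb it was 25% and 9.34%, but 3.63% (1.89 to 6.25) and 2.78% (1.39 to 4.92) at 1000 UMIs, where the intervals overlapped. Gzma stood at 178 and 257 CPM in 15 and 31 cells, and 10 cells held 98.6% and 93.7% of those UMIs. Its log2 ratio of 0.53 was -0.48 without the 5% of cells with most UMIs. Klrb1c stood at 21.04 and 18.1 CPM in 15 and 9 cells, a log2 ratio of -0.22 with an interval of -0.85 to 0.41.

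Cluster 6 was added to the comparison after the data were seen. Of its 5 members with at least 20 UMIs, Gzma and Xcl1 were at least 1.5-fold higher in the KO-labelled cells and Nkg7, Il2rb and Zbtb16 lower, beside 11.3% of 9790 genes higher and 4.95% lower. With TMM the 1106 higher and 485 lower genes became 574 and 855. Nkg7 had 261 UMIs in 54 of 479 WT-labelled cells (85.5 CPM) and 67 UMIs in 12 of 316 KO-labelled cells (35.6 CPM), a log2 ratio of -1.26 (-1.67 to -0.87). Il2rb had 74 UMIs in 46 cells and 18 UMIs in 10 cells, a log2 ratio of -1.31 (-2.17 to -0.58). Zbtb16 had 27 UMIs in 4 cells and 0. Gzma had 23 UMIs in 6 cells and 90 UMIs in 14 cells, of which 1 cell held 75. Xcl1 had 117 UMIs in 10 cells and 118 UMIs in 5 cells, a log2 ratio of 0.71 that was -0.03 without its 5 highest cells. For Nkg7 and Il2rb both the carrying cells and the UMIs were fewer.

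Clusters 6 and 7 hold cells of both coreceptor lineages, so Nkg7 and Il2rb were also read by the coreceptor UMIs in each cell. In cluster 7, Nkg7 was held by 74 of 106 WT-labelled cells with Cd8a or Cd8b1 and no Cd4 UMI (69.8%, 60.1 to 78.4) at 602 CPM, and by 35 of 97 such KO-labelled cells (36.1%, 26.6 to 46.5) at 346 CPM. At 1000 UMIs per cell these shares were 40.6% (31.1 to 50.5) and 12.4% (6.56 to 20.6). The median totals of the cells were 7182.5 and 4737 UMIs. In cells with Cd4 and no Cd8 UMI it was held by 3 of 76 and 2 of 90. Cells with neither coreceptor gave another picture, with Nkg7 in 22 of 79 WT-labelled cells at 374 CPM and 17 of 91 KO-labelled cells at 466 CPM, and at 1000 UMIs in 12.8% (6.32 to 22.3) and 17.6% (10.4 to 27.0). Cells with both held it in 11 of 71 and 14 of 118, at 143 and 126 CPM. Cd8-only cells held 679 of the 1341 Nkg7 UMIs of the cluster and cells with neither coreceptor 421, and in the KO-labelled library alone the latter held more, with 239 of 535 UMIs against 187. In cluster 7 the lower level and the lower share at 1000 UMIs under the KO label were thus seen in Cd8-only cells. They were not seen there in cells with neither coreceptor, whose intervals at 1000 UMIs overlapped.

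Cluster 6 gave the same order in Cd8-only cells. Nkg7 was held by 46 of 139 WT-labelled Cd8-only cells (33.1%, 25.4 to 41.6) and 6 of 65 KO-labelled ones (9.23%, 3.46 to 19.02), and by 0 of 130 and 0 of 78 Cd4-only cells. At 1000 UMIs the Cd8-only shares were 12.9% (7.86 to 19.7) and 3.13% (0.381 to 10.8), whose intervals overlap. Il2rb was held by 40 of 106 and 11 of 97 Cd8-only cells in cluster 7, and by 22 of 139 and 1 of 65 in cluster 6. At 1000 UMIs per cell the Cd8-only shares of Il2rb in cluster 7 were 4.72% (1.55 to 10.7) and 2.06% (0.251 to 7.25), and in cluster 6 they were 3.597% (1.18 to 8.19) and 0 of 64, with overlapping intervals. Il2rb was also held by 13 of 76 WT-labelled and 5 of 90 KO-labelled Cd4-only cells in cluster 7, which at 1000 UMIs became 1 of 76 and 3 of 90, the opposite order. Zbtb16 in cluster 6 was in Cd4-only cells for 25 of its 27 WT-labelled UMIs, in 3 of 130 cells.

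**Figure D5:**
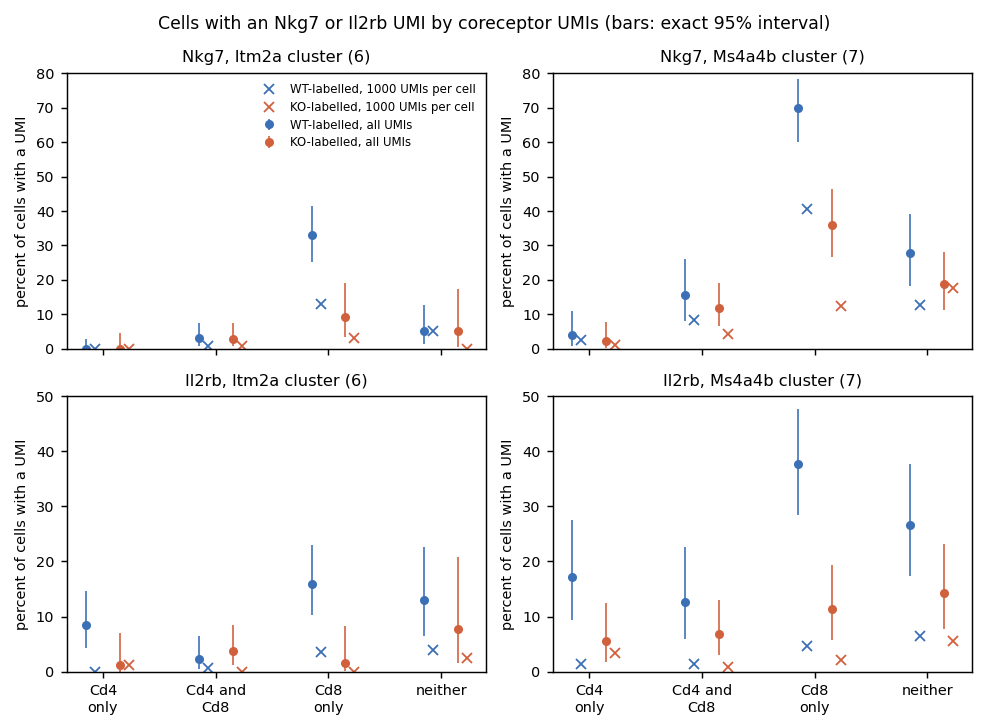
Percent of cells with an Nkg7 or Il2rb UMI (vertical axis, linear from 0) in clusters 6 and 7 by the coreceptor UMIs in the cell (horizontal axis), with points and exact 95% intervals for all UMIs and crosses at 1000 UMIs per cell. Nkg7 in Cd8-only cells of cluster 7 is at 69.8% (WT-labelled) and 36.1% (KO-labelled).

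Cluster 18 tied with cluster 7 for the most members at their peak, with 3 each. All 5 members with at least 20 UMIs there were at least 1.5-fold higher in the KO-labelled cells, beside 21.8% of 4043 genes higher and 12.4% lower, with a median log2 ratio of 4.04 and of 0.13 for all genes. Gzma, Ccl5 and Xcl1 (3 and 18 UMIs) reached 20 UMIs only through the KO-labelled cells, so their direction followed from that minimum. Zbtb16, with 7 WT-labelled and 0 KO-labelled UMIs, fell below it. The count and the median are therefore no result about the members. With TMM the 881 higher and 502 lower genes became 532 and 833. This rests on 8 KO-labelled cells. Gzma had 0 UMIs in 24 WT-labelled cells, with an upper limit of 8.38 CPM, and 79 in 2 KO-labelled cells, and Ccl5 had 0 UMIs with the same limit and 81 in 1 KO-labelled cell. The cell with all 81 Ccl5 UMIs also held 64 of the 79 Gzma, 17 of the 18 Xcl1 and 18 of the 22 Il2rb UMIs, no Trac UMI, 8 Ncr1 UMIs and 18 Tyrobp UMIs. Nkg7 was the exception in spread, with 155 UMIs in 11 WT-labelled cells and 77 UMIs in 3 KO-labelled cells, or 352 and 546 CPM. Without the 5 cells with most UMIs of each gene, only 1 member kept 20 UMIs, and its ratio lay below 0. Of the 32 cells, 7 were among the highest doublet scores.

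Related genes were read from lists with at least 20 UMIs over all cells. The counts below stand beside 6.43% of all genes 1.5-fold higher and 3.66% lower. Of 11 genes of cytotoxic granules, none was 1.5-fold higher and 4 were lower in the KO-labelled library, with a median log2 ratio of -0.20. Ctsw, a protease of killer cells, stood at 32.6 and 19.3 CPM, and Prf1, perforin, at 4.95 and 6.41 CPM. Of 10 chemokine and receptor genes, 2 were higher and 4 lower (median -0.08). Ccl3 stood at 0.774 and 0.132 CPM and Cxcr3 at 2.05 and 1.21 CPM. Of 11 cytokine receptor genes, 1 was higher and 2 lower (median 0.21), with Il2ra at 18.8 and 36.7 CPM and Il7r at 65.4 and 39.0 CPM.

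Among 16 transcription factor genes, 1 was higher and 4 lower, with a median of -0.40. Maf stood at 9.19 and 4.75 CPM, Id2 at 63.2 and 38.4 CPM and Zeb2 at 6.73 and 12.3 CPM. The median was below that of all genes, as was that of the granule list, and the members themselves belong to these lists. Of 3 effector cytokine genes none passed 1.5-fold either way (median -0.18). Of 24 NK receptor genes, 4 were higher and 7 lower (median 0.04). Klra9 had 102 UMIs in 8 cells and 16 UMIs in 3 cells, Klra6 20 UMIs in 4 cells and 0, and Cd244a 16 UMIs in 13 cells and 50 UMIs in 25 cells. Klra9 and Klra6 each rest on few cells.

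Lists that mark cell types were mixed. Of 8 genes of NK and innate lymphoid cells, 2 were higher and 2 lower (median 0.22), with Ncr1 at 0 UMIs against 56 UMIs in 10 cells and Tyrobp at 28.5 and 39.3 CPM. Of 13 gamma-delta T cell genes, 4 were higher and none lower (median 0.27), with Blk at 1.89 and 4.30 CPM while Trdc stood at 132 and 129 CPM. Of 4 natural killer T cell genes, Klrb1c and Zbtb16 were lower and none was higher (median -0.34). The 10 T cell genes and the 5 macrophage genes had none past 1.5-fold (medians 0.05 and 0.16), nor had the 6 genes of double-positive cells (median 0.13). Of the 6 genes of single-positive cells 2 were higher and 1 lower (median -0.06). All 5 B cell genes were higher (median 1.84), and of 7 dendritic cell genes 2 were higher and 2 lower (median 0.08). The part of these cell type differences in the members' ratios was not tested.

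In cluster 7 the same lists stand beside 21.0% of all genes higher and 5.55% lower. The lists were read without TMM, under which 909 genes of this cluster were higher and 1081 lower. Of 11 gamma-delta T cell genes 6 were higher and none lower (median 0.96). Of 7 genes of NK and innate lymphoid cells 4 were higher and none lower (median 0.75). The median for all genes was 0.24. Several of these genes lay in few of the 332 WT-labelled and 396 KO-labelled cells. Trdc had UMIs in 30 and 50 cells, Trgc4 in 23 and 28, Trgv2 in 23 and 21 and Tyrobp in 7 and 11. Ncr1 had 0 UMIs against 46 UMIs in 7 cells. Of 15 transcription factor genes, 4 were higher and 5 lower (median -0.02). Ikzf2, which encodes Helios, stood at 279 and 131 CPM, Id2 at 203 and 114 CPM and Gata3 at 74.3 and 147 CPM. Of 8 cytokine receptor genes 1 was higher and 2 lower (median -0.21), of 11 granule genes 2 were higher and none lower (median 0.20), and of 9 chemokine and receptor genes 5 were higher and 1 lower (median 0.66).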

How the data were processed

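Whole thymocytes of pooled mice were captured with a 10x 3′ kit in 1 library per condition. The authors deposited raw UMI counts per gene and cell as a matrix, with cluster assignments at several resolutions; per the labels, reads were processed with Cell Ranger 3.0.2 and STAR on mm10 and cells were filtered and clustered with Seurat. The clusters at resolution 1.5 were used as deposited. The label WT or KO in its name gave each cell its library, and the names write Cdc45 where the labels write Cdc42. No cell was removed, and the cells held 203 to 5985 genes.

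UMIs were summed per gene, cluster and library and divided by the UMIs of the same cells. Log2 ratios are of KO over WT after adding 0.5 to each sum, and a gene needed 20 UMIs over both libraries. Intervals are exact (Poisson for UMIs, Clopper-Pearson for shares, conditional binomial for ratios) at 95% and cover counting error only. For equal depth, cells were drawn down at random to 1000 UMIs. Doublet scores came from Scrublet in scanpy 1.11.5. Its automatic threshold marked 2 of 6115 and 1679 of 7568 cells and was not used; the highest 6% of scores in each library were left out as an alternative. TMM factors came from edgeR 4.0.16 and served only as a scaling. The calculation was tested on simulated data.

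The members and lists were chosen with earlier results of these data known. By rule, the genes named were the members, the 3 highest and the 3 largest ratios each way of each list, the 3 genes most like each member over clusters and the 15 genes leading in cells with 3 or more members. Genes named in the contrasts of cells with and without a member, and in the description of the clusters and of the 62 cells, were chosen after their values were seen. Some genes of the lists are counted but not reported here by name.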

Additional observations from a re-analysis of the deposited data

How the results depend on the processing

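No paired analysis was possible because there is 1 library per condition, and no replicate could be left out. Over all cells, Nkg7, Il2rb, Zbtb16 and Klrb1c lay below 0 under all 11 alternatives, and their log2 ratios spanned -1.22 to -0.81, -1.40 to -0.87, -2.85 to -1.67 and -0.91 to -0.53. They also lay below 0 under all 13 alternatives in cluster 7, although the Klrb1c interval there, -0.85 to 0.41, spans 0. Xcl1 lay below 0 over all cells under 3 of 11, and Tbx21 above 0 under 1 of 11 (0.90 at 1000 UMIs per cell). In cluster 7, Ccl5 turned to -0.34 as a mean over cells, -0.62 at 1000 UMIs per cell and -0.31 without its 5 highest cells. Most of those 5 cells were KO-labelled. Tbx21 turned there to -0.29 as a mean over cells. Xcl1 turned to -1.49 without its 5 highest cells, which were all KO-labelled. In cluster 6, whose alternatives were added after the data were seen, Xcl1 turned to -0.20 as a mean over cells, -0.55 at 1000 UMIs, -2.02 without the 5% of cells with most UMIs and -0.025 without its 5 highest cells. The median of the members in cluster 7 moved to -0.52 as a mean over cells, -0.34 at 1000 UMIs, -0.26 without the 5% of cells with most UMIs and -0.54 without the 5 highest cells of each. In cluster 18 it moved to 0.18 without the highest doublet scores (2 members left), 8.95 at a minimum of 50 UMIs (3 left) and -4.79 without the 5 highest cells of each (1 left), and no member kept 20 UMIs at 1000 UMIs per cell or without the 5% of cells with most UMIs.

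The count of genes past 1.5-fold over all cells was 4844 at a minimum of 1 UMI, 831 at 50 UMIs and 536 at 2-fold. In cluster 7 it was 7878, 1625 and 794, and 1506 at 1000 UMIs per cell. In cluster 18 it was 6273, 463 and 516, 96 at 1000 UMIs per cell and 261 without the 5% of cells with most UMIs. In cluster 18 the share of higher calls went from 63.7% to 39.0% with TMM and 53.3% without ribosomal protein and mitochondrial genes in the totals, and in cluster 6 from 69.5% to 40.2% and 52.9%. The share of cells with 3 or more members was 0.605% (WT) and 0.330% (KO) without equal depth, and 0.279% and 0.228% at 2000 UMIs. With 2 or more members it was 0.476% and 0.367%, and with 4 or more 0.0510% and 0.0680%, where the order of the libraries turned (3 and 5 cells). Apart from alternatives that change the number of cells, genes or members by construction, the cause was not tested. Depth limits Zbtb16, Tbx21 and Klrb1c most, with 85, 52 and 104 UMIs in all.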
